A study of Mus musculus with 9 samples.

Results

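The annexins are a family of calcium-dependent proteins that bind acidic phospholipids, and 9 of their genes were followed in the colonic mucosa of mice that differ in the gastrin gene. The genes were taken by name, as Anxa1 to Anxa7, Anxa11 and Anxa13. Of the 9 listed genes, 8 have probe sets of their own on the array, 18 in number, out of 45101 probe sets and 18193 genes in all. Expression was measured on 9 Affymetrix arrays, 3 for each genotype, with deposited values in log2 units, so that a difference of 1 is a doubling. WT mice, Gas-/- mice that lack the gastrin gene, and hGas Transgenic mice (hGas here) were all males aged 6 weeks, labelled as C57BL/6, and the labels name no drug. The mucosa was lifted from the colon wall with a PBS injection under it, and its RNA was extracted with Trizol. The labels name neither the promoter or cell type that drives the transgene nor the way the knockout was made. Whether each array stands for its own mouse is not in the labels, and the p-values then rest on the scatter among these samples, which may be technical.

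Each annexin has a conserved core that docks on membranes when calcium rises and a variable N-terminus that binds partners, among them the S100 proteins. In intestinal epithelium, annexins take part in vesicle traffic, membrane repair and the anchoring of actin. Annexin A2 forms a complex with S100A10 that binds plasminogen at the cell surface, and it is also known as a binding protein for progastrin, the precursor encoded by the gastrin gene. The annexins that lie close to this biology are therefore described first, then those of membrane traffic, then the partners.

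The arrays were alike in scale, with medians between 4.13 and 4.16 and correlations between 0.971 and 0.997 over the genes tested, and no 2 arrays held identical values. The Gas-/- arrays correlated least with the others, at 0.971 to 0.983. Gast itself was at background on all 9 arrays, between 1.93 and 2.14, so its probe set checks neither the knockout nor a transgene. The gastrin receptor gene Cckbr was at background as well, between 1.53 and 1.79 for both its probe sets. Of the markers of the labelled tissue, all 8 epithelial markers were well above background, with a mean level between 13.05 and 13.21 on the 9 arrays. The 6 smooth muscle markers were well above background too, at 13.14 to 13.34 in WT, and the neutrophil and T cell markers that were measured all averaged under log2 4, which is treated as near background here. In bulk tissue, fewer cells of a type and less RNA per cell cannot be told apart.

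Anxa2, the progastrin-binding member, was not called as changed between any genotypes. Its probe set 1419091_a_at read 13.19, 13.36 and 13.24 in WT, 13.36, 13.24 and 13.26 in Gas-/-, and 13.29, 13.16 and 13.29 in hGas. The ranges of the 3 genotypes overlap almost wholly. The log2 change was 0.03 in Gas-/- vs WT (SE 0.06, 95% interval -0.10 to 0.15, limma adjusted p = 0.83), -0.01 in hGas vs WT (interval -0.14 to 0.12, limma adjusted p = 0.965) and -0.04 in hGas vs Gas-/- (interval -0.16 to 0.09, limma adjusted p = 0.721). As folds, these intervals reach from 0.892 to 1.11 over the 3 comparisons, which bounds the size of any difference but does not show that the levels are equal. The other probe sets of Anxa2, 1437691_at and 1437692_x_at, lay near background, between 2.53 and 2.86 on all arrays, and were not tested.

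The sequence upstream of the annotated start of Anxa2 is shown because this is the member tied to the product of the gastrin gene. It lies at chr9:69453433-69453682 on the plus strand of GRCm38.p6, from RefSeq, and is printed up to the last base before the start. Capitals mark matches to the GC box GGGCGG, to TATAAA and to the AP-1 motif TGANTCA, each searched on both strands, with no overlap between them.
Anxa2 upstream region: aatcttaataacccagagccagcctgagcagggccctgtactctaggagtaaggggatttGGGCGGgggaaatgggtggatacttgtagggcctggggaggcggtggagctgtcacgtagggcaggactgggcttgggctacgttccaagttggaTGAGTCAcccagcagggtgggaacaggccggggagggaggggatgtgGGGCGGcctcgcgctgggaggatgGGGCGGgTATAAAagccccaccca
It holds 3 GC boxes, 1 TATA match close to the start and 1 AP-1 match. Among 32851 RefSeq promoters, the same 250 bases hold a GC box in 32.7%, a TATA match in 12.4% and an AP-1 match in 6.7%. These are matches of letters and say nothing about binding in this tissue.

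Anxa1, whose protein carries part of the anti-inflammatory action of glucocorticoids through formyl peptide receptors, followed Anxa2 from array to array. Its brighter probe set, 1448213_at, read 12.41, 12.60 and 12.43 in WT, 12.60, 12.46 and 12.55 in Gas-/-, and 12.56, 12.35 and 12.51 in hGas. WT replicate 2 and Gas-/- replicate 1 were the highest arrays for both genes, and hGas replicate 2 was the lowest. Of all genes tested, the 3 with a profile most like that of Anxa2 over the 9 arrays were Anxa1 (Pearson r = 0.937), Serpinb6a (r = 0.901) and Exoc5 (r = 0.893). These values describe arrays that share their normalisation, and no group difference of either gene exceeded the replicate spread. Between genotypes the log2 change of Anxa1 was 0.06, -0.01 and -0.07 in Gas-/- vs WT, hGas vs WT and hGas vs Gas-/-, with limma adjusted p between 0.571 and 0.98. A dimmer probe set, 1444016_at, lay between 4.1 and 5.08.

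**Figure D1:**
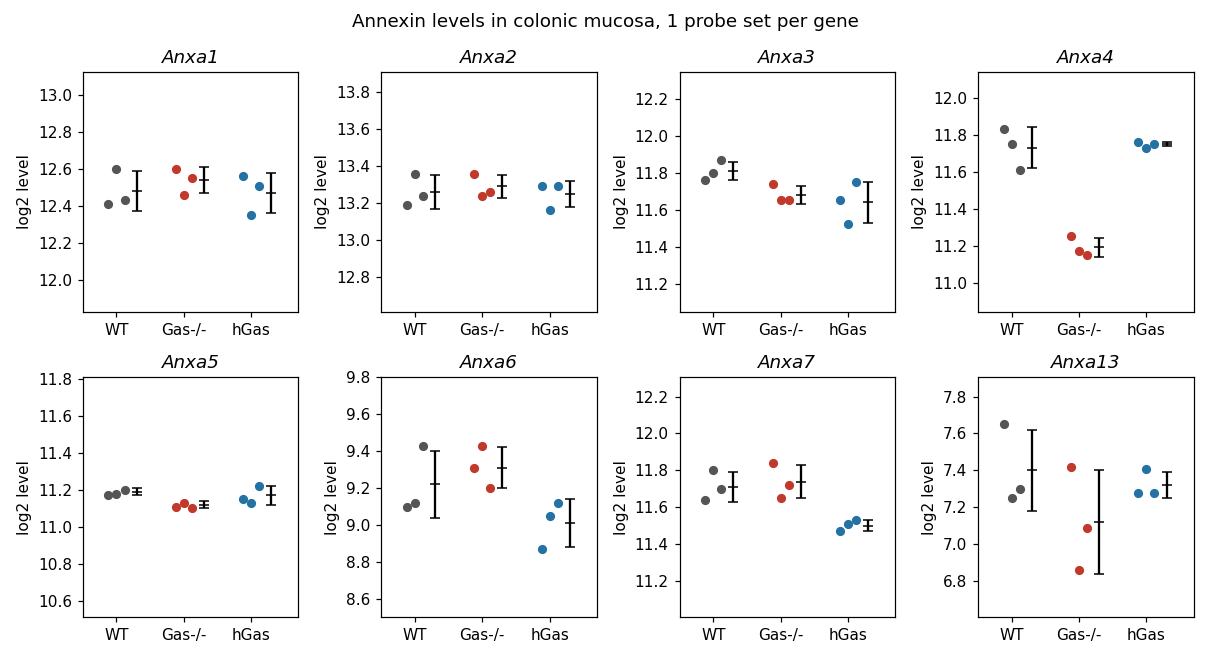
Log2 level of 8 annexin genes (y axis, the same 1.3-unit span in each panel) on each array of WT, Gas-/- and hGas mice (x axis); dots are arrays and the black bar is the mean with its SD, n = 3. Anxa4 in Gas-/- (11.15 to 11.25) lies below WT (11.61 to 11.83) and hGas (11.73 to 11.76), Anxa7 in hGas (11.47 to 11.53) lies below both other genotypes, and Anxa2 overlaps throughout.

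Anxa4 gave the smallest p of the 8 annexins in a test of any difference between genotypes (limma adjusted p = 0.000201). Annexin A4 is an annexin of epithelial cells that gathers at the plasma membrane and is known to restrain calcium-activated chloride conductance. Its brightest probe set, 1421223_a_at, read 11.83, 11.75 and 11.61 in WT, 11.25, 11.17 and 11.15 in Gas-/-, and 11.76, 11.73 and 11.75 in hGas. Each Gas-/- array was below each array of the other genotypes, and WT and hGas overlapped. This signal fell by 0.54 on the log2 scale in Gas-/- vs WT, or 1.46-fold (SE 0.06, 95% interval -0.67 to -0.42, limma adjusted p = 0.000227), from 11.73 ± 0.11 to 11.19 ± 0.05 (SD, n = 3). It was 1.48-fold higher in hGas than in Gas-/- (log2 0.56, SE 0.06, limma adjusted p = 0.000147), and its change in hGas vs WT was 0.02 (interval -0.11 to 0.15, limma adjusted p = 0.921). Both calls held when any 1 array was left out, with log2 changes of -0.60 to -0.49 and 0.54 to 0.59. The comparisons share the Gas-/- arrays, so the calls are not independent of each other.

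The other probe sets of Anxa4 were not called. Probe set 1424176_a_at read 10.46, 10.36 and 10.35 in WT, 10.45, 10.38 and 10.42 in Gas-/-, and 10.49, 10.28 and 10.30 in hGas, with a log2 change of 0.03 in Gas-/- vs WT (interval -0.11 to 0.17, limma adjusted p = 0.839 over all probe sets). Probe set 1457658_x_at read 8.63, 8.62 and 8.64 in WT and 8.74, 8.64 and 8.75 in Gas-/-, with a change of 0.08 (interval -0.11 to 0.26, limma adjusted p = 0.605). In hGas vs Gas-/- their changes were -0.06 and -0.13, beside the rise of 0.56 for 1421223_a_at. On each array, 1421223_a_at minus 1424176_a_at was 1.36, 1.38 and 1.26 in WT, 0.80, 0.79 and 0.73 in Gas-/-, and 1.27, 1.46 and 1.45 in hGas. The gap between these probe sets was thus narrower on all 3 Gas-/- arrays than on any other.

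To test the disagreement itself, the difference between the brightest and the next brightest probe set was fitted for the 5116 genes with at least 2 probe sets tested, a test added after the Anxa4 values had been seen. For Anxa4 this difference shifted by -0.57 in Gas-/- vs WT (SE 0.07, limma adjusted p = 0.000934) and by 0.62 in hGas vs Gas-/- (SE 0.07, limma adjusted p = 0.000482), where 6.78% and 6.59% of genes were called. It shifted by 0.06 in hGas vs WT (limma adjusted p = 0.856), where 0.0195% were called. The 4 other annexins with such a pair, Anxa1, Anxa6, Anxa7 and Anxa8, were not called in any of the 3 comparisons (limma adjusted p between 0.345 and 1.0). With the 3 probe sets of Anxa4 averaged, the change in Gas-/- vs WT was -0.15 and was not called (limma adjusted p = 0.134), and that in hGas vs Gas-/- was 0.12 (limma adjusted p = 0.169). The call thus rests on 1 of 3 probe sets, and which transcripts each of them reads was not tested.

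RefSeq lists 2 starts for Anxa4, 18470 bases apart on the minus strand of GRCm38.p6, and the bases upstream of each are shown because the probe sets of this gene disagree. The first covers chr6:86793635-86793834, without 50 bases that the annotation places inside the gene, and the second chr6:86775115-86775364, inside the gene. As printed, neither holds a GC box, a TATA match or an AP-1 match, so no letters are in capitals. The 50 bases left out of the first are those next to its start, and they were not searched.
Anxa4 upstream of the first start: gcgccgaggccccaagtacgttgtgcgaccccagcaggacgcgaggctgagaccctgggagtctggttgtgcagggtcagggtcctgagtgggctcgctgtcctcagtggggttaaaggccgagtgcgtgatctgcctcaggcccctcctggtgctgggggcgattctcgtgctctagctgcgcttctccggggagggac
Anxa4 upstream of the second start: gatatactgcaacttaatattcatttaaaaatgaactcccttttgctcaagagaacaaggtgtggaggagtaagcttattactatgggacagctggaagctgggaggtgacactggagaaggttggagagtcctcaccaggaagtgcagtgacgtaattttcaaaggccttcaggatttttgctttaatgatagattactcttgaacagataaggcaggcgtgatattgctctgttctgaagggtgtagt
In windows of 200 bases, 24.6% of promoters hold a GC box, 9.1% a TATA match and 5.6% an AP-1 match. Which start each probe set reads was not analysed here.

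**Figure D2:**
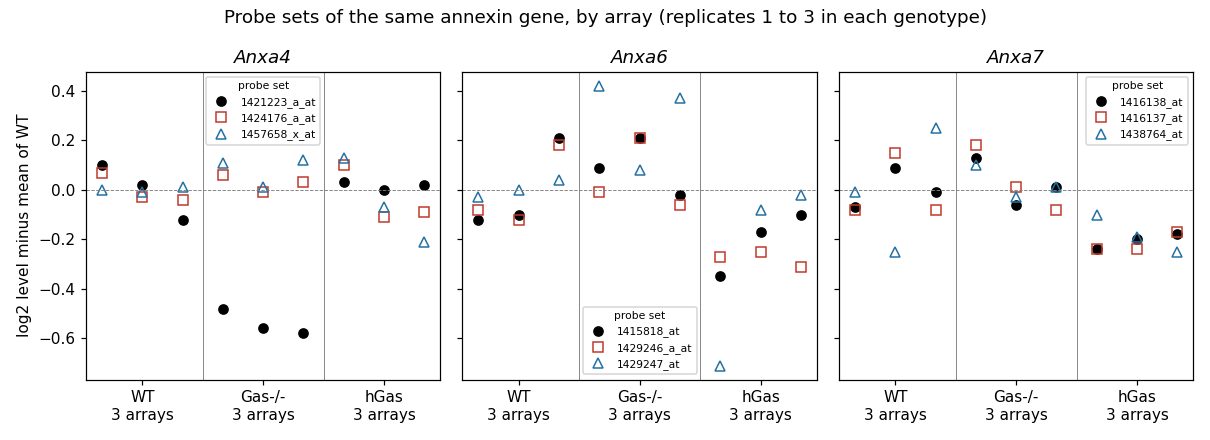
Log2 level minus the WT mean of the same probe set (y axis) on each array (x axis, 3 per genotype) for 3 probe sets each of Anxa4, Anxa6 and Anxa7. The filled circles of Anxa4 (1421223_a_at) drop in Gas-/- while its other probe sets stay near 0, and all 3 probe sets of Anxa7 lie below 0 in hGas.

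Of the 3 genes whose profile over the 9 arrays was most like that of Anxa4, Faap20 had r = 0.986, Aadac, an esterase gene, r = 0.984 and Sdc2, which encodes the proteoglycan syndecan, r = 0.983. The 9 arrays share the gap between Gas-/- and the other genotypes, so these are descriptions. Several marker lists also differed between Gas-/- and WT, not all of them in the direction of this probe set. Plasma cell markers averaged 9.4 to 9.61 in Gas-/-, 8.32 to 8.84 in WT and 9.04 to 9.34 in hGas, and 4 of 6 tested rose and 1 fell in Gas-/- vs WT. In the same comparison 4 of 7 macrophage and monocyte markers and 3 of 5 B cell markers rose, and 3 of 6 distal colon markers fell. Of all genes tested, 6.64% were called higher and 5.48% lower there. Goblet cell markers averaged 13.52 to 13.72 in WT and 13.70 to 13.73 in Gas-/-, and epithelial markers 13.05 to 13.20 and 13.17 to 13.21. In Gas-/- vs WT 2 of 8 epithelial markers were called higher. Of 8 goblet cell markers, 1 was called higher and 1 lower in that comparison. In hGas vs Gas-/- 1 goblet cell marker was called higher and 3 lower, beside 8.05% and 8.51% of all genes. In hGas vs WT limma called 0 of the 8, and 7 had an unadjusted p under 0.05, beside 14.2% of all genes. The part of these lists in the Anxa4 values was not tested.

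Anxa7 was lower in hGas than in Gas-/- mucosa. It encodes synexin, an annexin that promotes fusion of secretory granules. Probe set 1416138_at read 11.64, 11.80 and 11.70 in WT, 11.84, 11.65 and 11.72 in Gas-/-, and 11.47, 11.51 and 11.53 in hGas. The hGas arrays lay below all 6 other arrays. The gene fell by 0.24 on the log2 scale in hGas vs Gas-/-, or 1.18-fold (SE 0.06, 95% interval -0.37 to -0.11, limma adjusted p = 0.0222). The change in hGas vs WT was of like size, -0.21 (SE 0.06, interval -0.34 to -0.08), but was not called (limma adjusted p = 0.124). In Gas-/- vs WT it was 0.02 (interval -0.11 to 0.15, limma adjusted p = 0.851). The call in hGas vs Gas-/- was lost without Gas-/- replicate 1 (log2 -0.19, limma adjusted p = 0.0786), without Gas-/- replicate 3 (-0.24, limma adjusted p = 0.0591) or without hGas replicate 1 (-0.22, limma adjusted p = 0.0765).

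The other probe sets of Anxa7 had changes of the same sign. Probe set 1416137_at read 8.44, 8.44 and 8.51 in hGas, under all WT arrays (8.60 to 8.83) and all Gas-/- arrays (8.60 to 8.86), with a change of -0.25 in hGas vs Gas-/- (limma adjusted p = 0.0754). The dimmer 1438764_at changed by -0.21 (limma adjusted p = 0.276), with hGas at 6.65 to 6.80, Gas-/- at 6.87 to 7.0 and WT, which overlapped both, at 6.65 to 7.15. Of the 3, 1416138_at was the one called.

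Anxa6, whose duplicated core links late endosomes and cholesterol traffic, had the same order of means in hGas and Gas-/-, without a call at the level of the gene. Its brightest probe set, 1415818_at, read 9.10, 9.12 and 9.43 in WT, 9.31, 9.43 and 9.20 in Gas-/-, and 8.87, 9.05 and 9.12 in hGas. The hGas arrays did not overlap the Gas-/- arrays, and hGas replicate 3 lay within the WT range. The change in hGas vs Gas-/- was -0.30 (SE 0.10, limma adjusted p = 0.08), and it was called without WT replicate 3 (limma adjusted p = 0.0354). Probe set 1429246_a_at, at 7.94, 7.96 and 7.90 in hGas against 8.20, 8.42 and 8.15 in Gas-/-, changed by -0.33 and was called when all probe sets were tested together (limma adjusted p = 0.0482). With the replicate number as a block the same value was not called (limma adjusted p = 0.0668), and it was called in 1 of the 9 fits that left out an array. Probe set 1429247_at changed by -0.56 (limma adjusted p = 0.0606), and hGas replicate 1, at 5.0, was its lowest array, with the other hGas arrays at 5.63 and 5.69. That array was also lowest for 1442288_at, at 3.55 where the other 8 arrays lay between 4.34 and 4.93.

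The remaining annexins were not called in any comparison. Anxa3, known from granule fusion in neutrophils, read 11.76, 11.80 and 11.87 in WT, 11.74, 11.65 and 11.65 in Gas-/-, and 11.65, 11.52 and 11.75 in hGas. WT was the highest genotype and overlapped neither of the others, at log2 changes of -0.13 in Gas-/- vs WT (limma adjusted p = 0.216) and -0.17 in hGas vs WT (limma adjusted p = 0.23). These comparisons share the WT arrays. Anxa5, whose protein binds exposed phosphatidylserine and is used to stain dying cells, read 11.17, 11.18 and 11.20 in WT, 11.11, 11.13 and 11.10 in Gas-/-, and 11.15, 11.13 and 11.22 in hGas. The Gas-/- arrays lay just under the WT arrays, by 0.07 in the mean (SE 0.04, limma adjusted p = 0.316). Anxa13, an annexin of intestinal epithelium that serves transport to the apical membrane, read 7.65, 7.25 and 7.30 in WT, 7.42, 6.86 and 7.09 in Gas-/-, and 7.28, 7.41 and 7.28 in hGas. All 3 ranges overlapped, and the change in Gas-/- vs WT was -0.27 with a wide interval of -0.60 to 0.06 (limma adjusted p = 0.281).

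Anxa11, which encodes an annexin that couples RNA granules to lysosomes, has no probe set of its own. The probe set that names it also names Gm2274 and Gm2260, so its values cannot be given to any of the 3 genes, at 9.43, 9.63 and 9.46 in WT, 9.38, 9.51 and 9.50 in Gas-/-, and 9.24, 9.43 and 9.39 in hGas, and it was left out of all counts. Other family members measured lie outside the list of 9: Anxa9 and Anxa10 were at background, between 1.94 and 2.38 over their probe sets, and Anxa8 was well expressed.

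Anxa8, an annexin with anticoagulant activity that is also found on late endosomes, was lower in hGas than in Gas-/-. Probe set 1417732_at read 9.29, 9.77 and 9.17 in WT, 9.69, 9.42 and 9.77 in Gas-/-, and 9.09, 8.90 and 9.14 in hGas. The hGas arrays lay below all others, though WT replicate 3 was only slightly higher. It fell by 0.59 on the log2 scale in hGas vs Gas-/-, or 1.5-fold (SE 0.15, limma adjusted p = 0.0278), and its other probe set, 1425789_s_at, fell by 0.55 (limma adjusted p = 0.0195). The changes were -0.37 in hGas vs WT (limma adjusted p = 0.306) and 0.22 in Gas-/- vs WT (limma adjusted p = 0.403). The gene's call in hGas vs Gas-/- was lost without Gas-/- replicate 1, Gas-/- replicate 3, hGas replicate 1 or hGas replicate 2, with limma adjusted p between 0.0685 and 0.101. With the replicate number as a block, probe set 1417732_at was not called there (limma adjusted p = 0.0514 over all probe sets).

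**Figure D3:**
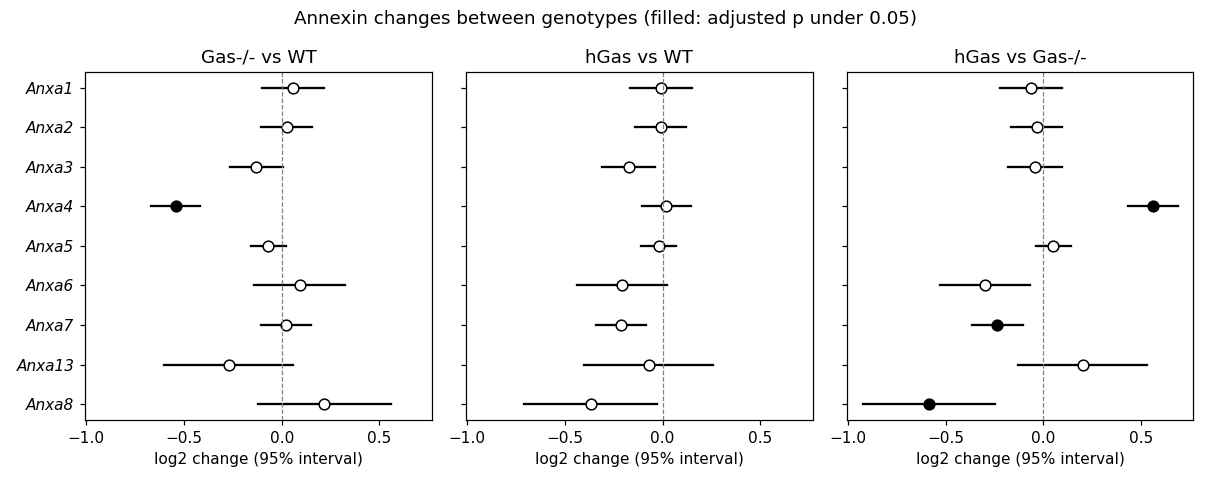
Log2 change (x axis) with its 95% interval for the 8 measured annexins and Anxa8 (y axis) in 3 comparisons; filled dots had a limma adjusted p under 0.05. Anxa4 stands at -0.54 in Gas-/- vs WT and 0.56 in hGas vs Gas-/-, Anxa7 at -0.24 and Anxa8 at -0.59 in hGas vs Gas-/-, and no interval of Anxa2 leaves -0.16 to 0.15.

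Counted over the 8 measured members, all of which passed the filter on low values, the annexins were called about as often as all genes. In Gas-/- vs WT, 1 of 8 was called and fell (Anxa4), where 12.1% of the 11273 genes tested were called, with 6.64% higher and 5.48% lower. In hGas vs WT, limma called 0 of 8, where 1.16% of genes were called, with 0.639% higher and 0.523% lower, and 2 of 8 had an unadjusted p under 0.05, beside 14.2% of genes. In hGas vs Gas-/-, 1 rose (Anxa4) and 1 fell (Anxa7), where 16.6% of genes were called, with 8.05% higher and 8.51% lower. The genotypes did not overlap in 3, 2 and 3 of 8 annexins in these comparisons, beside 31.1%, 17.7% and 36.7% of all genes. The median log2 change of the 8 was -0.023, -0.045 and -0.039, and that of all genes tested was 0.007, 0.008 and 0.001.

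At the level of probe sets, 16 of the 18 annexin probe sets passed the filter. Of these 1 fell in Gas-/- vs WT, where 11.3% of 23136 probe sets were called, with 6.03% higher and 5.31% lower. None was called by limma in hGas vs WT, where 0.761% were, with 0.376% higher and 0.385% lower. An unadjusted p under 0.05 was found for 5 of the 16, beside 13.5% of all probe sets. In hGas vs Gas-/-, 1 rose and 2 fell, where 14.9% were called, with 7.09% higher and 7.8% lower.

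S100 proteins are small calcium sensors, several of which dock on annexin N-termini. S100a10, the partner of annexin A2, was not called either. Its brightest probe set, 1456642_x_at, read 12.90, 12.94 and 12.89 in WT, 13.06, 12.95 and 13.08 in Gas-/-, and 13.12, 13.06 and 12.86 in hGas. The Gas-/- arrays lay just above WT, hGas spanned both, and the changes were 0.12, 0.10 and -0.02 in Gas-/- vs WT, hGas vs WT and hGas vs Gas-/- (limma adjusted p = 0.277, 0.542 and 0.871). Its other probe sets had changes of 0.14 and 0.27 in Gas-/- vs WT (limma adjusted p = 0.203 and 0.0855), which were not called.

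S100g, which encodes the calcium buffer calbindin-D9k of intestinal calcium uptake, differed most among the partners. It read 7.24, 7.17 and 8.02 in WT, 5.27, 4.89 and 5.38 in Gas-/-, and 8.21, 9.96 and 8.12 in hGas, so that no genotype overlapped another. It fell 4.91-fold in Gas-/- vs WT (log2 -2.30, SE 0.44, limma adjusted p = 0.00859) and was 12.0-fold higher in hGas than in Gas-/- (log2 3.58, SE 0.44, limma adjusted p = 0.000539). Its change of 1.29 in hGas vs WT was not called (limma adjusted p = 0.215). Markers of proximal colon averaged 8.27, 9.01 and 8.04 in hGas replicates 1, 2 and 3, and 6.58 to 6.87 on all other arrays, and small intestine markers averaged 5.55, 5.73 and 5.52 in hGas and 4.37 to 5.12 elsewhere. The array with the highest S100g, hGas replicate 2, was thus highest in both lists, which share the gene Isx. Without that array the log2 change of S100g in hGas vs Gas-/- was 2.99 (limma adjusted p = 0.000169). Gas-/- and WT overlapped in both lists. Their part in the S100g values was not tested.

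S100a4, a gene of motile stromal and myeloid cells, rose in Gas-/-. It read 9.0, 8.73 and 9.28 in WT, 9.63, 9.63 and 9.66 in Gas-/-, and 8.85, 8.57 and 9.21 in hGas, and the Gas-/- arrays lay above all others. The log2 change was 0.64 in Gas-/- vs WT (SE 0.16, limma adjusted p = 0.0327) and -0.77 in hGas vs Gas-/- (SE 0.16, limma adjusted p = 0.0116). The first call held in 3 of the 9 fits that left out an array and was lost without WT replicates 1 or 2, any Gas-/- array, or hGas replicate 1, with limma adjusted p up to 0.108. The second held in all 9. Macrophage and monocyte markers, 8 in number with 1 near background, averaged 8.06 to 8.22 in Gas-/-, 7.73 to 7.83 in WT and 7.57 to 7.97 in hGas. As for S100a4, the Gas-/- arrays lay above all others in this list, and also in the B cell and plasma cell lists. Within hGas, these markers were highest in replicate 1 (7.97) and S100a4 in replicate 3 (9.21). The part of these lists in the S100a4 values was not tested. S100a1 was 0.19 higher in hGas than in Gas-/- (limma adjusted p = 0.0447), a call kept in 1 of 9 such fits. Of the 8 S100 genes tested out of 10 listed, 1 rose and 1 fell in Gas-/- vs WT, where 12.1% of all genes were called, and 2 rose and 1 fell in hGas vs Gas-/-, where 16.6% were. In hGas vs WT limma called 0 of them, beside 1.16% of all genes, and 2 had an unadjusted p under 0.05, beside 14.2%.

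Among genes of plasma membrane repair, a process in which annexins cap the wound, more were called lower than higher in hGas vs Gas-/-. Of 13 tested, 5 fell and 0 rose, where 8.51% of genes fell. The median log2 change of the 13 was -0.053, and that of all genes tested was 0.001. The list was chosen with earlier results of these data known, so this count is a description and not a test. In the same comparison 5 of 7 macrophage and monocyte markers and 5 of 5 B cell markers fell, with median log2 changes of -0.521 and -2.563, and their part in the repair genes was not tested. Dysf, the gene of the calcium sensor dysferlin, read 4.42, 4.15 and 4.38 in WT, 4.90, 4.98 and 5.16 in Gas-/-, and 4.37, 4.54 and 4.27 in hGas. The Gas-/- arrays were the highest, all of them close to the filter of log2 4. Dysf rose by 0.70 in Gas-/- vs WT (SE 0.12, limma adjusted p = 0.00407) and was lower by a log2 change of -0.62 in hGas vs Gas-/- (limma adjusted p = 0.00597).

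Ahnak2, a relative of the giant scaffold gene Ahnak that binds annexin A2 with S100A10, read 8.51, 8.68 and 8.57 in WT, 8.83, 8.53 and 9.0 in Gas-/-, and 7.79, 7.95 and 8.04 in hGas. The hGas arrays lay below all others. It fell by 0.66 on the log2 scale in hGas vs WT (SE 0.11, limma adjusted p = 0.0298) and by 0.86 in hGas vs Gas-/- (limma adjusted p = 0.000864), and in hGas vs WT it was the only partner called among 46, where 1.16% of genes were. That call was kept in 3 of the 9 fits that left out an array, with limma adjusted p up to 0.116, and the call in hGas vs Gas-/- in all 9. Ahnak fell by 0.22 in hGas vs Gas-/- (limma adjusted p = 0.0428, kept in 3 of 9). A dimmer probe set of Ahnak, 1428057_a_at, changed by -0.17 and was not called (limma adjusted p = 0.188 over all probe sets). With its probe sets averaged, Ahnak was not called (limma adjusted p = 0.128). Capn2, a calpain subunit gene, fell by 0.31 (limma adjusted p = 0.00604, kept in all 9) and Myof, the dysferlin relative myoferlin, by 0.42 (limma adjusted p = 0.0161, kept in 8 of 9) in the same comparison.

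**Figure D4:**
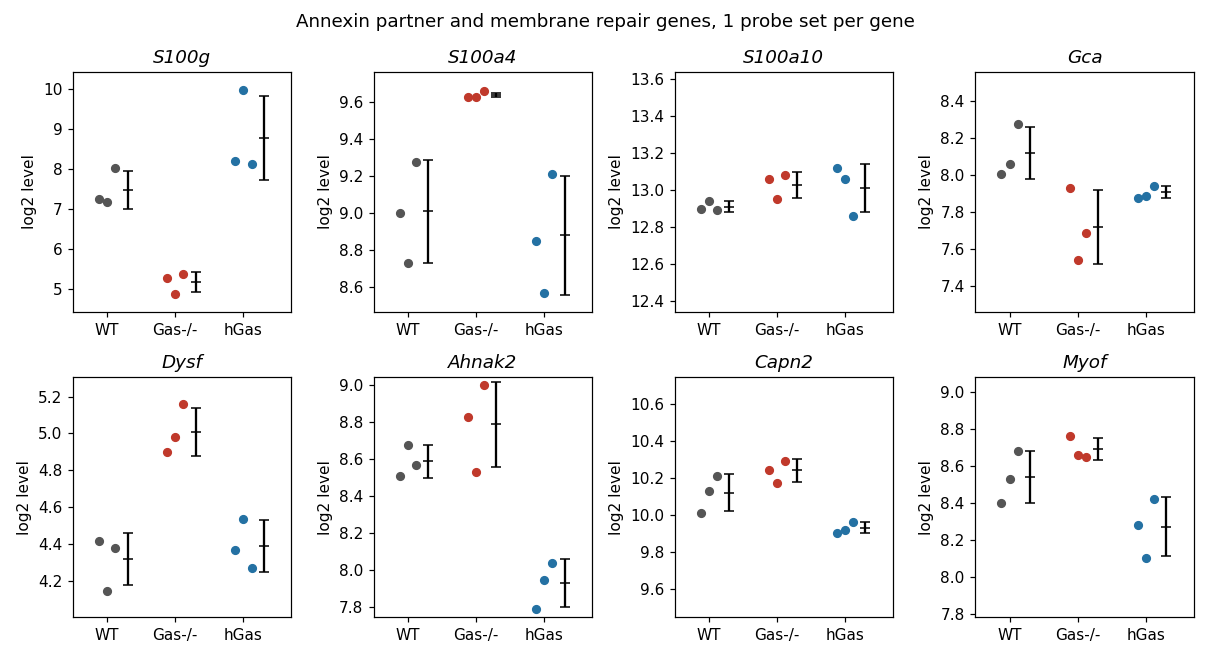
Log2 level of 8 partner and membrane repair genes (y axis, a 6-unit span for S100g and 1.3 units elsewhere) on each array of WT, Gas-/- and hGas mice (x axis); dots are arrays and the black bar is the mean with its SD, n = 3. S100g is lowest in Gas-/- (4.89 to 5.38), S100a4 and Dysf are highest there, Ahnak2 and Capn2 are lowest in hGas, and S100a10 overlaps between hGas and both other genotypes.

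Among actin and endosome partners of annexin A2, Cav2, a caveolin gene, rose by 0.37 in Gas-/- vs WT (limma adjusted p = 0.0422), and in hGas vs Gas-/- Cav1 fell by 0.30 (limma adjusted p = 0.0487) and Msn, the gene of the membrane linker moesin, by 0.21 (limma adjusted p = 0.034). These were 1 and 2 of 13 tested, beside 12.1% and 16.6% of all genes called, and they were kept in 2, 3 and 4 of the 9 fits that left out an array. Another probe set of Msn, 1450379_at, changed by -0.01 in hGas vs Gas-/- (limma adjusted p = 0.956 over all probe sets). With probe sets averaged, Cav2 and Msn were not called in these comparisons (limma adjusted p = 0.0802 and 0.213). For Cav2 the average takes in 1425955_at, which lay at background, between 1.91 and 2.04. Cav1 has no other probe set and its change stayed at -0.30, but it was not called in that fit either (limma adjusted p = 0.0587). The penta-EF-hand gene Gca, which encodes grancalcin, a calcium protein of the family that binds annexins A7 and A11, fell by 0.40 in Gas-/- vs WT (limma adjusted p = 0.0352, kept in 2 of 9) and was 1 of 5 called, beside the same 12.1%. Its dimmer probe set, 1451451_at, changed by -0.24 in that comparison and was not called (limma adjusted p = 0.2345 over all probe sets). In the plasminogen system 4 of 12 listed genes were tested, and limma called 0 in the 3 comparisons, with an unadjusted p under 0.05 for 0, 1 and 0 of them, beside 25.9%, 14.2% and 31.2% of all genes in Gas-/- vs WT, hGas vs WT and hGas vs Gas-/-. Of the receptors and enzymes tied to annexin A1, 2 of 7 were tested and 0 were called, at any unadjusted p under 0.05 as well.

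Over all partner lists, 46 of 69 genes were tested. In Gas-/- vs WT 3 rose and 2 fell, in hGas vs WT 1 fell, and in hGas vs Gas-/- 2 rose and 8 fell, beside 12.1%, 1.16% and 16.6% of all genes called. Their median log2 change was 0.05, -0.01 and -0.03.

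The other marker lists fell into 3 kinds. B cell markers, lower in hGas, and small intestine and proximal colon markers, higher there, separated hGas from both other genotypes. The hGas arrays of Anxa7, Anxa8 and Ahnak2 lay below all others. B cell markers averaged 5.34 to 5.97 in WT, 6.14 to 6.84 in Gas-/- and 3.82 to 4.41 in hGas, with 1 of 5 measured markers near background. Gas-/- and WT did not overlap in the B cell list either. Small intestine markers averaged 4.37 to 5.12 in WT, 4.72 to 5.0 in Gas-/- and 5.52 to 5.73 in hGas, with 4 of 9 near background. Distal colon markers separated WT, at 7.39 to 7.54, from Gas-/- and hGas, which overlapped at 6.88 to 7.07 and 6.73 to 6.89. The averages of fibroblast markers (11.63 to 11.87) and endothelial markers (6.25 to 6.48) overlapped between all genotypes. Single fibroblast markers did differ: 2 of 6 were called higher in Gas-/- vs WT, beside 6.64% of all genes. In hGas vs Gas-/- 2 of 6 were called lower, beside 8.51%. The part of these lists in the annexin and partner results was not tested.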

How the data were processed

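Per the submitters' processing notes, the deposited log2 values were made by the authors with GCRMA, a method that models background by the bases of each probe, equalises the arrays' distributions and gives 1 value per probe set; its version is not given in the sources used here. This removes any change shared by most genes. Probe sets were named through the platform annotation: 34945 carry 1 gene, 932 several and 9160 none, and 64 controls were left out. For genes with several probe sets, that of the highest mean over the 9 arrays was used, and genes with log2 of at least 4 on at least 3 arrays were tested. Genotype was fitted to all 9 arrays with limma 3.58.1 in R 4.3.3 (lmFit, eBayes with a trend, 6 residual and 3.47 prior degrees of freedom), with 2-sided tests and Benjamini-Hochberg adjustment over 11273 genes, and separately over 23136 probe sets. Adjusted p-values under 0.05 were called. The number of arrays limits the precision. The fit was tested on simulated data. Members and lists were chosen with earlier results of these data known. Genes named were the annexins, partners called in a comparison, S100a10 and Gast, and the 3 genes most like Anxa2 and most like the annexin with the smallest F test p; Cckbr was added after its values were seen. Of the partner genes, 62 of 69 were matched by symbol. Same-numbered arrays deviated together in hGas and Gas-/- (r = 0.117, 0.201 and 0.267) and in hGas and WT (r = 0.254, 0.0838 and 0.203). In Gas-/- and WT r was 0.15, -0.00557 and 0.145. Between differently numbered arrays r lay between -0.292 and 0.113. The labels name no batch, and the replicate number was used as a block only as an alternative. The main p-values thus take no account of it. Promoter entries matched 6 of the 9 listed genes. Figures were drawn with matplotlib 3.10.9.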

Additional observations from a re-analysis of the deposited data

How the results depend on the processing

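Having 3 arrays per genotype limits what can be called, and the cause of each change below was not tested unless it follows from how the alternative is built. The counts of annexins called were 1, 0 and 2 in Gas-/- vs WT, hGas vs WT and hGas vs Gas-/-. With probe sets averaged they were 0 in Gas-/- vs WT and 1 in hGas vs Gas-/-, since the probe sets of Anxa4 disagree, and at an adjusted p under 0.01 the last was 1. Leaving out 1 array gave 1, 0 and 1 to 3. For annexin probe sets in hGas vs Gas-/-, the count of 3 became 1 without the mean-variance trend, 1 at an adjusted p under 0.01 and 6 under 0.10, and 1 to 4 with 1 array left out. Partner genes called in Gas-/- vs WT numbered 5, but 2 with no filter, 3 with probe sets averaged, 2 at an adjusted p under 0.01 and 2 to 4 with 1 array left out. In hGas vs Gas-/- the 10 called became 6 with no filter, 6 without the trend, 4 at 0.01 and 5 to 9 with 1 array left out, and in hGas vs WT the 1 became 0 with no filter, 0 at 0.01 and 0 to 1.

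The log2 change of Anxa2 passed through 0 when 1 array was left out, between -0.0123 and 0.0728 in Gas-/- vs WT, -0.0474 and 0.0378 in hGas vs WT and -0.0573 and 0.00814 in hGas vs Gas-/-, and stood at 0.00928 in hGas vs WT with array weights; it was never called. Other uncalled values near 0 also changed sign. In hGas vs WT, Anxa1 stood at 0.0099 with array weights and Anxa4 at -0.00489 with quantile normalization, -0.0225 with probe sets averaged and -0.00147 with array weights, and Anxa1 at -0.053 in Gas-/- vs WT with probe sets averaged. With 1 array left out, hGas vs WT ranged from -0.052 to 0.055 for Anxa1, -0.15 to 0.054 for Anxa13, -0.0398 to 0.0677 for Anxa4 and -0.048 to 1.1e-05 for Anxa5. In hGas vs Gas-/- it ranged from -0.098 to 0.017 for Anxa3 and -0.072 to 0.055 for S100a10, and Anxa7 from -0.028 to 0.066 in Gas-/- vs WT. With the replicate block, 1, 0 and 2 annexins were called, 1, 0 and 2 annexin probe sets and 5, 1 and 11 partners, and the change of Anxa2 was 0.03, -0.01 and -0.04.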
